A study of Mus musculus with 20 samples.

Results

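The genes described here carry out or mark ion transport in the loop of Henle and the distal tubule of the mouse kidney. They are the rows of the deposited gene count table with the symbols Umod, Slc12a1, Bsnd, Slc12a3, Kcnj10, Pvalb, Trpm6, Trpv5 and Calb1, 9 of the 55822 genes listed. All 9 passed the filter on low counts, and they stood among 16266 genes tested. The set is broader than its name, since uromodulin is a secreted protein and parvalbumin and calbindin bind calcium without carrying it across a membrane.

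The thick ascending limb reabsorbs sodium, potassium and chloride through the apical cotransporter NKCC2 (Slc12a1). Chloride leaves at the basolateral side through channels that need the subunit barttin (Bsnd). The distal convoluted tubule takes up sodium chloride through the thiazide-sensitive cotransporter NCC (Slc12a3) and magnesium through the channel TRPM6. Farther along, calcium enters through TRPV5 and is carried through the cell by calbindin-D28k (Calb1).

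Whole kidneys of 8-week-old male C57BL/6J mice were profiled by poly(A) RNA sequencing. Groups of 6 to 10 mice were randomised, and 5 samples of each are listed. Of the 4 groups, 2 are compared here: control mice received PBS and treated mice received puberulic acid, a tropolone compound of Penicillium moulds, at 1 mg per day. The labels list 6 daily doses and organ collection on day 7. Dosing was oral by one label, and by another it was either oral or intraperitoneal. The remaining groups received Choleste-Help, a dietary supplement, from a normal or a toxic lot at 1000 mg per day. The names of those 10 columns do not show which lot they hold, so they were not used here. The mice were wild type by the title of the series, and nothing beyond the numbered titles describes the single animals.

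Total estimated counts ran from 18409940 to 24705953 per library. Levels are given as CPM, counts relative to the library total after scaling with TMM factors (trimmed mean of M-values). Control kidneys expressed the defining markers of every nephron segment searched, and no marker was at 0 in all controls. Puberulic acid replicate 1 stood apart from its group on the control side for several of the genes, so values without it are given where they change a call. In that animal the summed proximal tubule markers (6 genes) were at 1228 CPM, against 421 to 543 CPM in the other 4 treated animals and 8233 to 11612 CPM in controls. Its summed injured tubule markers (Havcr1, Lcn2 and Krt20) were at 1490 CPM, against 1768 to 2701 CPM in the other 4 and 4.09 to 5.88 CPM in controls. In whole kidney RNA, fewer cells of a type and less RNA per cell cannot be told apart.

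The stretches before the transcription starts of Umod, Slc12a3 and Pvalb are shown because these genes gave a level near that of controls, a moderate decrease and the largest decrease of the 9. They come from RefSeq on GRCm38.p6, are written 5′ to 3′ on the strand of the gene, and leave out bases that overlap an annotated exon. Capitals mark TATAAA, a core promoter element, searched on both strands. Pvalb has 2 annotated starts.
Umod, chr7:119479283-119479512, minus strand: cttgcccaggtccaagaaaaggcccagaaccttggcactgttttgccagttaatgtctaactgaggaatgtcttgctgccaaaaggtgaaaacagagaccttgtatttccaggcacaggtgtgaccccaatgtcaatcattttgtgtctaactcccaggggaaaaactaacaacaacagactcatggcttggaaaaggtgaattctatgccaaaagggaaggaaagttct
Slc12a3, chr8:94328958-94329200, plus strand: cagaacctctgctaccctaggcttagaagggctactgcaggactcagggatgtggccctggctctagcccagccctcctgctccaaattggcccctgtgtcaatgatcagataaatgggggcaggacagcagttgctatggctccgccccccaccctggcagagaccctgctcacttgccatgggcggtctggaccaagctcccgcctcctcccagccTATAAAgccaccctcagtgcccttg
Pvalb, upstream start, chr15:78206401-78206650, minus strand: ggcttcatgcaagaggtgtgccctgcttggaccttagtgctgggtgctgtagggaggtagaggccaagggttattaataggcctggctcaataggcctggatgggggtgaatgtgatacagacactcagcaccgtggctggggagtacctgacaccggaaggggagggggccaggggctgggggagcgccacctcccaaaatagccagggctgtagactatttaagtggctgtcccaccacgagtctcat
Pvalb, downstream start, chr15:78204238-78204487, minus strand: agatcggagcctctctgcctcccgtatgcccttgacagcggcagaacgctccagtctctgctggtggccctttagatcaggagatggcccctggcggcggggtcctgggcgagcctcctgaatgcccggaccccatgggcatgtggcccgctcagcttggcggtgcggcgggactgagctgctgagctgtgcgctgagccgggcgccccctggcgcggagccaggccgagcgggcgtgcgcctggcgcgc

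RefSeq windows were matched by symbol for 7 of the 9 genes, as 8 windows of 250 bases before a start. Those of Bsnd and Calb1 were not matched. TATAAA was found in 2 of the 8 windows, those of Slc12a3 and Trpv5, starting at positions -32 and -43 from the transcription start, and in 12.4% of all 32851 windows. The Trpv5 match lies among 46 bases of its window that overlap an annotated exon. No window held more than 1 match, and the matches describe the letters only.

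The comparison of puberulic acid with PBS asks how transcripts of these segments differ after 6 daily doses. Of the 9 genes, Pvalb, Calb1, Bsnd, Slc12a1, Slc12a3 and Kcnj10 were called lower. Trpv5 was called higher, and Umod and Trpm6 did not pass the test. These calls were made with edgeR's quasi-likelihood test at an adjusted p under 0.05. Across all genes tested, 65.3% were called, 31.1% lower and 34.2% higher, so a call by itself is common in these kidneys. Treated and control animals were fully separated for 3 of the 9, Pvalb, Calb1 and Bsnd, each lower in all 5 treated animals, where the ranges did not overlap for 50.1% of all genes tested, 24.0% lower and 26.1% higher. The calls of the weaker changes depend on scaling. With total counts in place of TMM factors, the median log2 fold change of all genes moved from 0.05 to 0.56, and 3 of the 9 genes were called lower and 3 higher, with a change of sign for Kcnj10.

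**Figure D1:**
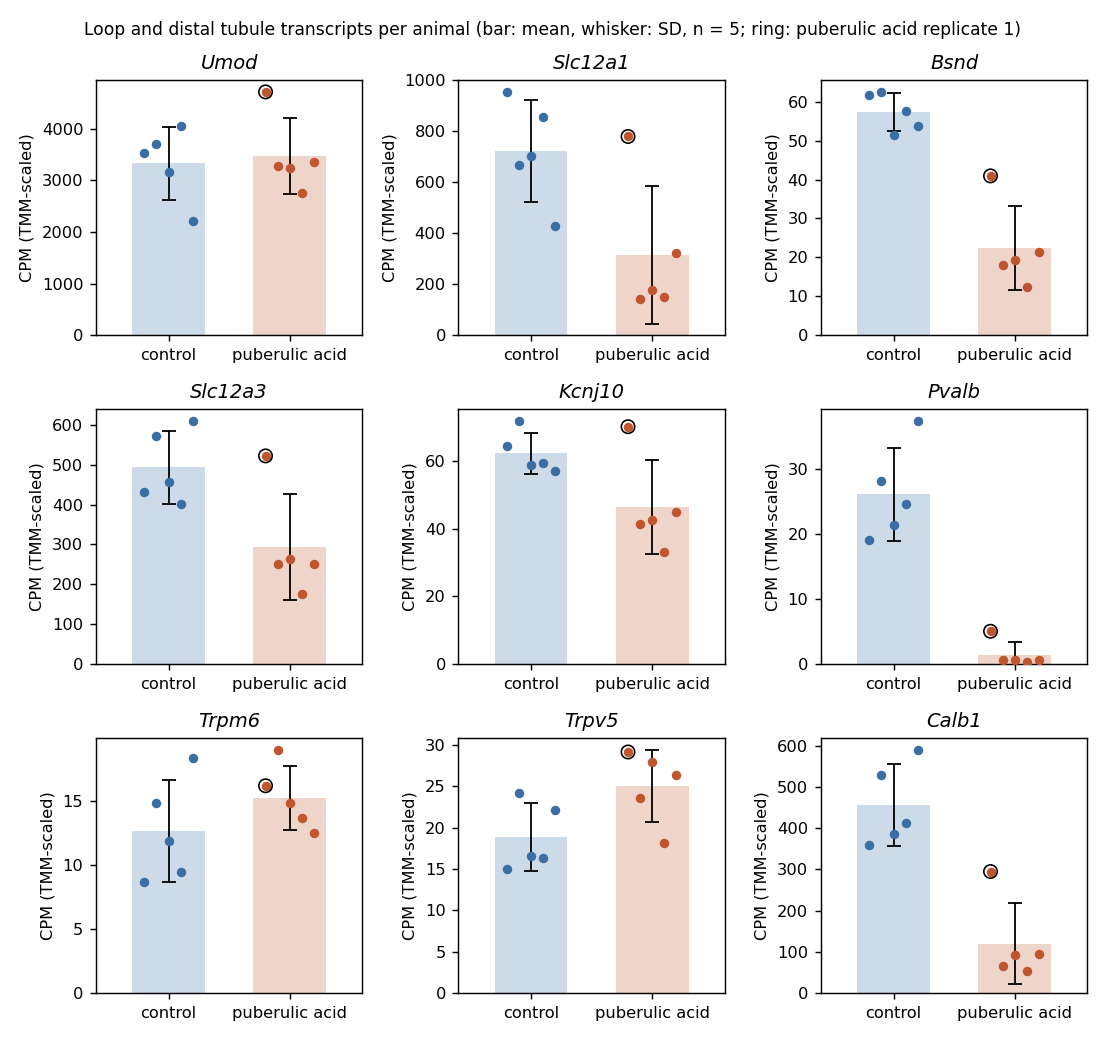
Levels of the 9 genes in CPM (vertical axes, linear from 0) in each animal of the control and puberulic acid groups. Points are animals, bars are group means, whiskers are SDs (n = 5), and rings mark puberulic acid replicate 1. That animal lies within the control range for Slc12a1, Slc12a3 and Kcnj10, whereas all treated animals lie below the controls for Pvalb, Calb1 and Bsnd.

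Among the genes of the thick ascending limb, the transcript of the secreted protein stayed near its control level while Slc12a1 and Bsnd were lower. Bsnd is also on the distal convoluted tubule list below, so its decrease cannot be placed in a single segment. Umod (ENSMUSG00000030963) encodes uromodulin, the most abundant protein of normal urine. Umod stood at 3528, 3716, 3173, 4050.3 and 2208 CPM in control replicates 1 to 5, and at 4719, 3289, 3242, 2765 and 3368 CPM in puberulic acid replicates 1 to 5. The groups overlapped, with 4 of 5 treated animals inside the control range and replicate 1 above it. Their means were 3335 ± 705 and 3476 ± 733 CPM (SD, 5 animals each). The log2 fold change was 0.06 ± 0.18 (SE, adjusted p = 0.782), with a 95% interval from -0.35 to 0.47. It was -0.10 without puberulic acid replicate 1, -0.07 without control replicate 5 and 0.57 with total counts (adjusted p = 0.0119).

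Slc12a1 (ENSMUSG00000027202), the cotransporter blocked by loop diuretics, was at 954, 668, 702, 857 and 429 CPM in control replicates 1 to 5. It was at 779, 139.8, 178, 149 and 324 CPM in puberulic acid replicates 1 to 5. Replicates 2 to 5 all lay below the lowest control and replicate 1 lay inside the control range. The means were 722 ± 201 and 314 ± 271 CPM (SD, 5 animals each), or -1.20 ± 0.45 on the log2 scale (SE, adjusted p = 0.0333). Without puberulic acid replicate 1 it was -1.89 (adjusted p = 0.000112). The call was lost without control replicate 1, 3 or 4 or puberulic acid replicate 2, 3, 4 or 5 (log2 fold changes from -1.24 to -1.03, adjusted p from 0.0514 to 0.0724), and with total counts (-0.69, adjusted p = 0.18).

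Bsnd (ENSMUSG00000025418) encodes barttin, whose loss causes a salt-wasting Bartter syndrome with deafness. It was at 61.7, 62.5, 51.4, 57.6 and 53.8 CPM in control replicates 1 to 5 and at 40.9, 18.1, 19.2, 12.5 and 21.5 CPM in puberulic acid replicates 1 to 5. No treated animal reached the lowest control, and replicate 1 was again the nearest to the controls. Bsnd fell 2.56-fold, from 57.4 ± 4.85 to 22.4 ± 10.9 CPM (SD, 5 animals each), or -1.35 ± 0.25 on the log2 scale (SE, adjusted p = 0.000521). It was called lower in every setting tried, total counts included (-0.84, adjusted p = 0.00909).

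Among the distal convoluted tubule genes, parvalbumin transcripts fell far more than those of the cotransporter. Those of the magnesium channel did not pass the test. Slc12a3 (ENSMUSG00000031766), the target of thiazide diuretics, was at 431, 571, 456, 401 and 609.9 CPM in control replicates 1 to 5. It was at 522, 249.7, 264, 176 and 250.1 CPM in puberulic acid replicates 1 to 5. Replicates 2 to 5 were below every control, and replicate 1 lay within the control range. Slc12a3 fell from 494 ± 91.5 to 292 ± 133 CPM (SD, 5 animals each), or -0.76 ± 0.25 on the log2 scale (SE, adjusted p = 0.0189). It was -1.10 without replicate 1 (adjusted p = 6.59e-05) and -0.25 with total counts, which did not pass (adjusted p = 0.38).

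Kcnj10 (ENSMUSG00000044708) encodes the basolateral potassium channel Kir4.1, which sets the membrane voltage of distal convoluted tubule cells. Its levels were 64.5, 71.8, 58.7, 59.3 and 56.9 CPM in control replicates 1 to 5 and 70.1, 41.4, 42.4, 33.2 and 45.0 CPM in puberulic acid replicates 1 to 5. Replicate 1 of the treated group again lay among the controls and the other 4 below them. The means were 62.2 ± 6.04 and 46.4 ± 14.0 CPM (SD, 5 animals each), or -0.42 ± 0.17 on the log2 scale (SE, adjusted p = 0.0439). This small change was -0.64 without puberulic acid replicate 1 (adjusted p = 0.000174) but turned to 0.09 with total counts (adjusted p = 0.663). It did not pass with upper-quartile factors (-0.33, adjusted p = 0.0886) or with no filter (-0.43, adjusted p = 0.0543). The call was lost without any single one of control replicates 1 to 4 or puberulic acid replicates 2 to 5 (log2 fold changes from -0.45 to -0.36, adjusted p from 0.0562 to 0.0955).

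Pvalb (ENSMUSG00000005716), the calcium-binding protein that marks the early distal convoluted tubule, was at 19.1, 28.2, 21.4, 24.6 and 37.5 CPM in control replicates 1 to 5. It was at 5.05, 0.596, 0.593, 0.244 and 0.611 CPM in puberulic acid replicates 1 to 5. These values rest on 334 to 577 counts in controls and on 136, 14, 14, 6 and 19 counts in the treated animals, all above the floor of 3 counts. Even replicate 1 lay well under the lowest control. Pvalb fell 18.2-fold, from 26.1 ± 7.19 to 1.42 ± 2.03 CPM (SD, 5 animals each), or -4.18 ± 0.66 on the log2 scale (SE, adjusted p = 0.000139). Without replicate 1 the log2 fold change was -5.68 (adjusted p = 2.2e-08).

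Trpm6 (ENSMUSG00000024727), mutated in familial hypomagnesemia with secondary hypocalcemia, was at 8.67, 14.9, 11.9, 9.41 and 18.4 CPM in control replicates 1 to 5. Treated replicates 1 to 5 had 16.2, 19.0, 14.8, 13.7 and 12.5 CPM. The ranges overlapped broadly, and replicate 1 did not stand apart for this gene. With means of 12.6 ± 4.02 and 15.2 ± 2.51 CPM (SD, 5 animals each), the log2 fold change was 0.27 ± 0.20 (SE, adjusted p = 0.266), with a 95% interval from -0.20 to 0.74. With total counts it was 0.77 (adjusted p = 0.00446).

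The calcium entry channel and the calcium carrier of the late distal tubule moved apart. Calb1 (ENSMUSG00000028222) was at 360.1, 529, 385, 413 and 591 CPM in control replicates 1 to 5 and at 295, 65.6, 91.9, 54.0 and 93.3 CPM in puberulic acid replicates 1 to 5. All treated animals lay under the lowest control, with replicate 1 the closest. Calb1 fell 3.80-fold, from 456 ± 99.5 to 119.9 ± 99.2 CPM (SD, 5 animals each), or -1.93 ± 0.42 on the log2 scale (SE, adjusted p = 0.00146). It was -2.60 without puberulic acid replicate 1 (adjusted p = 6.33e-07).

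Trpv5 (ENSMUSG00000036899) stood at 15.0, 24.3, 16.6, 16.4 and 22.2 CPM in control replicates 1 to 5 and at 29.2, 23.6, 28.0, 18.1 and 26.4 CPM in puberulic acid replicates 1 to 5. Replicates 1, 3 and 5 of the treated group exceeded every control, while replicates 2 and 4 lay inside the control range. The means were 18.9 ± 4.09 and 25.05 ± 4.40 CPM (SD, 5 animals each), or 0.41 ± 0.17 on the log2 scale (SE, adjusted p = 0.047). The call was lost without control replicate 1, 3 or 4 or puberulic acid replicate 1, 2, 3 or 5 (log2 fold changes from 0.32 to 0.41, adjusted p from 0.0655 to 0.113). It was also lost with RLE size factors (0.40, adjusted p = 0.051), with no filter (0.40, adjusted p = 0.0637) and with the replicate block (0.41, adjusted p = 0.0561). With total counts it was 0.92 (adjusted p = 0.000405).

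**Figure D2:**
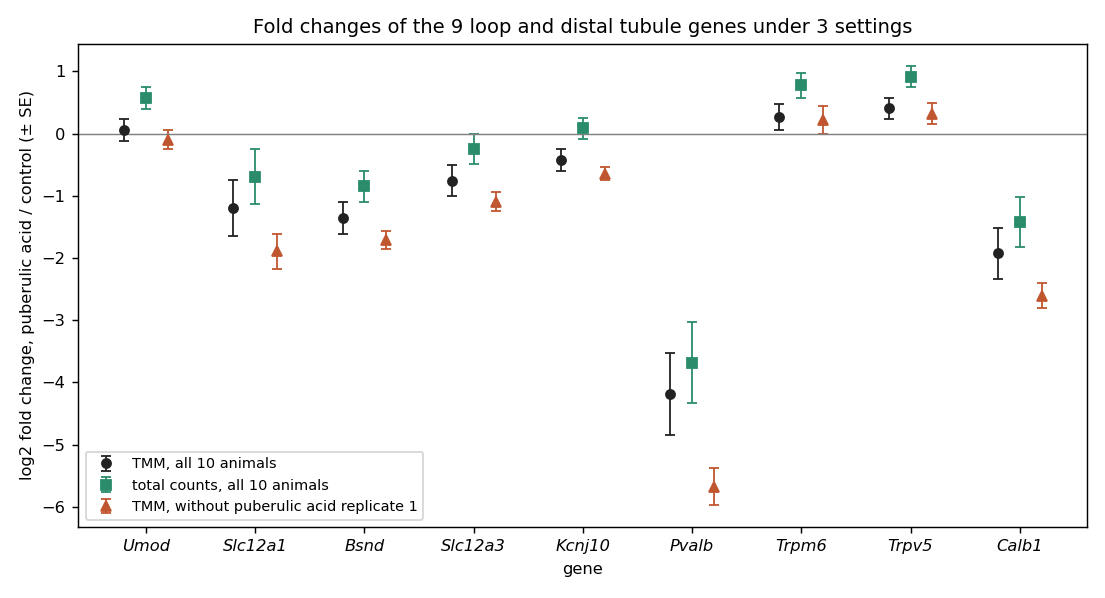
Log2 fold changes of puberulic acid over control (vertical axis, whiskers SE) for the 9 genes (horizontal axis) with TMM factors, with total counts, and with TMM factors without puberulic acid replicate 1. Pvalb, Calb1 and Bsnd lie below 0 in all 3 settings, whereas Kcnj10 changes sign with total counts and Umod without replicate 1.

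Ratios of 2 of the genes within an animal do not depend on how libraries are scaled. For each of 7 ratios the group means were set against every assignment of the animals (exact permutation test, two-sided, adjusted over the 7), which allows no p under 0.00794. Among thick ascending limb genes, the log2 ratio of Umod to Slc12a1 counts was 2.23 ± 0.22 in controls. With puberulic acid it was 3.79 ± 0.79 (SD, 5 animals each). It was higher by 1.56 (exact permutation p = 0.00794, adjusted p = 0.0139), and all 5 treated animals exceeded the controls, from 2.60 in replicate 1 to 4.56 in replicate 2. The log2 ratio of Bsnd to Slc12a1 differed by 0.03 (exact permutation p = 0.937, adjusted p = 0.937), with control animals from -3.95 to -2.99 and treated animals from -4.25 to -2.95. The log2 ratio of Slc12a3 to Slc12a1 differed by 0.66 (exact permutation p = 0.159, adjusted p = 0.185), with overlapping groups.

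Among distal convoluted tubule genes, the log2 ratio of Pvalb to Slc12a3 went from -4.26 ± 0.22 to -8.37 ± 0.98 (SD, 5 animals each). The difference was -4.12 (exact permutation p = 0.00794, adjusted p = 0.0139) and the groups did not overlap. It was -3.51 with 10 counts in place of 1 added to each gene. The log2 ratio of Trpm6 to Slc12a3 was higher by 1.14 (exact permutation p = 0.00794, adjusted p = 0.0139), with -5.62 to -5.05 in controls and -5.01 to -3.68 in treated animals. Replicate 1, at -5.01, lay just above the highest control. Kcnj10 to Slc12a3 was higher by 0.37 (exact permutation p = 0.0317, adjusted p = 0.0444), with overlapping groups. That call was lost without control replicate 2, 3 or 5 or puberulic acid replicate 2, 3, 4 or 5 (differences from 0.26 to 0.38, adjusted exact permutation p from 0.0667 to 0.0889). For calcium transport, the log2 ratio of Trpv5 to Calb1 rose from -4.59 ± 0.11 to -1.98 ± 0.77 (SD, 5 animals each). This difference of 2.60 had an exact permutation p of 0.00794 (adjusted p = 0.0139). Controls lay from -4.73 to -4.45, replicate 1 at -3.33 and the other 4 treated animals from -1.82 to -1.48.

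**Figure D3:**
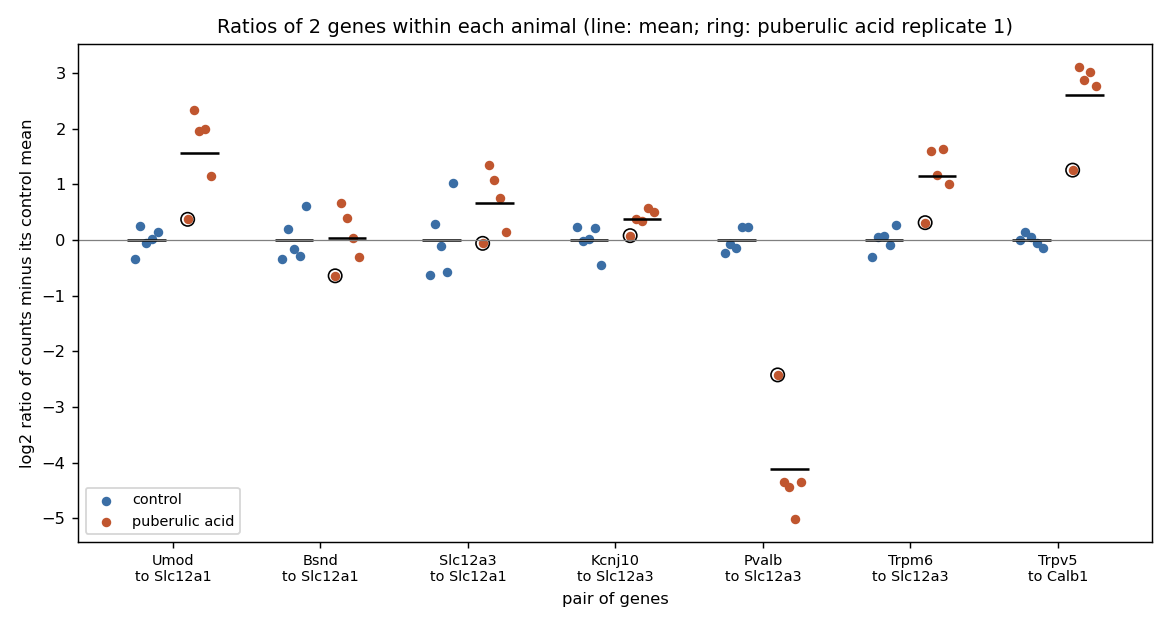
Log2 ratio of the counts of 2 genes in each animal, minus its mean in controls (vertical axis), for 7 pairs of genes (horizontal axis). Lines are group means and rings mark puberulic acid replicate 1. Treated and control animals do not overlap for Umod to Slc12a1, Pvalb to Slc12a3, Trpm6 to Slc12a3 and Trpv5 to Calb1.

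The order of the 9 levels changed most for Pvalb. Levels between genes were compared per kilobase of the longest protein-coding transcript in GENCODE M21, a length that the deposited values need not share. In controls Umod led at 1270.4 CPM per kilobase, followed by Slc12a1 (152), Slc12a3 (115) and Calb1 (108), whose ranges over the animals overlapped. Pvalb (26.8) and Bsnd (20.8) overlapped each other too, while Kcnj10 (11.5), Trpv5 (5.82) and Trpm6 (1.94) each lay apart from their neighbours in the order. With puberulic acid, Umod again led at 1324 CPM per kilobase. Slc12a3 (67.8) and Slc12a1 (66.2) overlapped, Calb1 was at 28.4 with a range that reached both of them, Bsnd and Kcnj10, and Kcnj10 (8.58), Bsnd (8.14) and Trpv5 (7.72) could not be ordered beyond their spread. Pvalb went from the fifth place to the last, at 1.45 CPM per kilobase against 2.34 for Trpm6, with overlapping ranges.

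The genes most like each of the 9 were found among 9496 other genes whose mean level was 10 CPM or more. Likeness was the root mean square difference over the 10 samples between log2(CPM + 1) profiles, each centred on its own mean. Nearest to Slc12a1 were Ptger3 (0.30), the prostaglandin E receptor EP3 that is also expressed in the thick ascending limb, and Pcsk6 (0.31). Nearest to Calb1 were Klhl3 (0.24), an adaptor for degradation of WNK kinases, and Slc6a19 (0.25), a neutral amino acid transporter of the proximal tubule. For Pvalb they were Rdh16f2 (0.23) and Alpl (0.26), and for Slc12a3 they were Fam13a (0.15) and Shank2 (0.16). Pvalb was under 1 CPM in puberulic acid replicates 2 to 5, so the added 1 compresses its profile. Bsnd was nearest to Acadsb (0.12) and Dmtn (0.13), and Kcnj10 to Scly (0.083) and Letm1 (0.084). Umod was nearest to Pard3 (0.12) and Abhd2 (0.13), Trpm6 to Prkrip1 (0.15) and Rhbdf1 (0.16), and Trpv5 to Cdk5rap2 (0.11) and Plekha1 (0.14).

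Of the 22 genes of the thick ascending limb list, all tested, 14 were called lower and 2 higher, with a median log2 fold change of -0.90 against 0.05 for all genes tested. Leaving out Umod, Slc12a1 and Bsnd, 12 of the other 19 were lower and 2 higher, with a median of -0.84. Kcnj1, the gene of the apical potassium channel ROMK, fell by 0.97 on the log2 scale, from 223 ± 14.3 to 114 ± 52.5 CPM (SD, 5 animals each). The largest decreases were those of Egf, a growth factor gene, from 1369 ± 206 to 125 ± 109 CPM (SD, 5 animals each), and of the potassium channel Kcnj15, from 902 ± 158 to 158 ± 30.0 CPM, with the same n. The log2 fold change of Egf was -3.45, and -4.15 without puberulic acid replicate 1. Whole kidney RNA does not show in which segment Egf or Kcnj15 decreased. The genes called higher were Slc4a7 (0.47), a sodium bicarbonate cotransporter, and Cldn14, a claudin that restrains calcium reabsorption. Cldn14 had 1 or 2 counts in each control and 22 to 139 in each treated animal, a ratio of 32.4 with a counting interval from 14.7 to 88.9. Besides Umod, the genes that did not pass were the tight junction genes Cldn16 (-0.11) and Cldn19 (-0.18), the calcium-sensing receptor gene Casr (-0.26), Slc4a2 (-0.15) and Ptger3 (-0.84). Without puberulic acid replicate 1, Casr (-0.95, adjusted p = 0.00282), Ptger3 (-1.45, adjusted p = 0.000119) and Slc4a2 (-0.30, adjusted p = 0.0138) were called lower. The direction depends on scaling: with total counts Slc4a2 (0.35, adjusted p = 0.0217) and Cldn16 (0.40, adjusted p = 0.0246) were called higher. Casr changed sign there without a call (0.24, adjusted p = 0.612). With total counts 8 genes of this list were lower and 5 higher, with the call of Kcnj1 lost (-0.45, adjusted p = 0.104), and without puberulic acid replicate 1 they were 17 and 2.

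On the distal convoluted tubule list, 11 of 16 genes tested were called lower and 3 higher, with a median log2 fold change of -0.77. Of the 11 tested genes on it that are not among the 9, 7 were lower and 3 higher. Kcnj16, which encodes the partner of Kir4.1, fell by 0.83 on the log2 scale, from 554 ± 57.4 to 312 ± 99.3 CPM (SD, 5 animals each). The genes of magnesium handling went both ways. Trpm7 (-0.92 ± 0.13), a channel related to Trpm6, Cnnm2 (-1.21 ± 0.10) and Cnnm4 (-0.48 ± 0.17) fell, while Slc41a1 (0.81 ± 0.09) and Slc41a3 (0.52 ± 0.19, SE in each case) rose. Egfr, the receptor for EGF, rose by 0.68 on the log2 scale, and Slc8a1, the sodium calcium exchanger, did not pass (-0.65, adjusted p = 0.116). Without puberulic acid replicate 1 Slc8a1 was called lower (-1.11, adjusted p = 0.00142), and the call of Slc41a3 was lost (0.48, adjusted p = 0.0604). With total counts 6 genes of the list were lower and 4 higher, the call of Kcnj16 was lost (-0.32, adjusted p = 0.115), and Cnnm4 changed sign and lost its call (0.03, adjusted p = 0.901). Without replicate 1 of the treated group 12 were lower and 2 higher. Kcna1 was under the filter on low counts.

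On the distal calcium list, 6 of 12 genes were called lower and 3 higher, with a median of -0.98. Without Trpv5 and Calb1, 5 of 10 were lower and 2 higher. S100g, which encodes calbindin-D9k, fell with Calb1, from 650.1 ± 115 to 167 ± 88.3 CPM (SD, 5 animals each). Kl, the gene of the FGF23 coreceptor klotho, fell from 655 ± 90.0 to 128 ± 76.4 CPM, with the same n. Vdr (-1.30), Pth1r (-1.61) and the kallikrein gene Klk1 (-1.53) were lower as well. Trpv6, a channel closely related to Trpv5, rose from 1.78 ± 0.96 to 5.92 ± 1.24 CPM (SD, 5 animals each), and the plasma membrane calcium pump gene Atp2b1 rose by 0.63 on the log2 scale. Atp2b4 (0.57, adjusted p = 0.16), Slc8a1 and Casr did not pass, though Slc8a1 and Casr did without puberulic acid replicate 1 (-1.11 and -0.95). With total counts the list had 6 genes lower and 4 higher, and without puberulic acid replicate 1 it had 8 and 2.

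WNK kinases act through SPAK and OSR1 to phosphorylate NCC and NKCC2. Of 15 genes tested on this list, 10 were called lower and 1 higher, with a median log2 fold change of -0.57. Klhl3 fell from 49.5 ± 11.5 to 12.3 ± 6.98 CPM and Wnk2 from 5.65 ± 2.32 to 1.85 ± 0.31 CPM (SD, 5 animals each). Wnk4 (-1.22), Wnk1 (-0.83) and Cul3 (-0.57), the ligase scaffold that works with Klhl3, also fell. Oxsr1, the gene of OSR1, rose by 0.30 on the log2 scale. Stk39, the gene of SPAK (-0.02), Cab39 (0.09), Nedd4l (-0.14) and Sgk1 (-0.21) did not pass. Of these, Stk39 (0.49, adjusted p = 0.0051) and Cab39 (0.60, adjusted p = 5.13e-05) were called higher with total counts. With total counts 4 genes were called lower and 3 higher, the calls of Wnk1 (-0.32, adjusted p = 0.0987) and Cul3 (-0.06, adjusted p = 0.543) were lost, and of the genes called lower Klhl2 changed sign (-0.28 to 0.23). Wnk3 was under the filter.

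**Figure D4:**
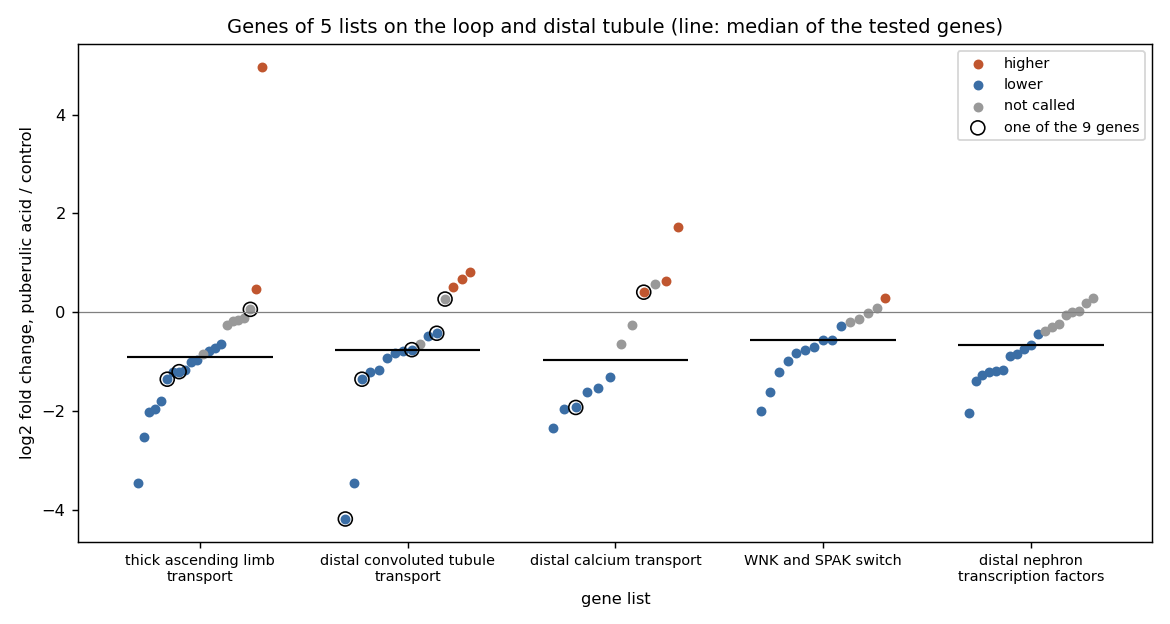
Log2 fold changes of puberulic acid over control (vertical axis) for the tested genes of 5 lists (horizontal axis), each point a gene, with lines at the list medians and rings on the 9 genes. The medians of the first 4 lists run from -0.98 to -0.57 with TMM factors, and Cldn14 stands above all others; with total counts the WNK list had 4 genes lower and 3 higher.

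Markers of several other cell types moved with these genes. All 6 proximal tubule markers were lower, and the 5 principal cell markers summed to 393 to 593 CPM in controls and 183 to 244 CPM in treated animals. Intercalated cell markers summed to 236 to 316 CPM and 100.3 to 251.5 CPM, with 3 of 5 lower. Without puberulic acid replicate 1, which had the 251.5 CPM, the treated animals summed to 100.3 to 135.6 CPM and 5 of 5 were lower. Podocyte markers (191 to 413 CPM in controls, 66.2 to 339 CPM in treated animals, 1 of 3 lower) and endothelial markers (136 to 219 CPM and 72.2 to 186 CPM, 1 of 4 lower) overlapped between the groups. Among leukocyte markers 3 of 5 rose (4 of 5 without replicate 1), with sums of 11.7 to 32.7 CPM in controls and 61.1 to 142 CPM in treated animals, and among fibroblast markers 3 of 4 rose, from 65.8 to 106 CPM up to 377 to 1422 CPM. Several genes of the lists, such as Slc9a3, Pth1r and Kl, are also known from the proximal tubule. With total counts, 6 of 6 proximal tubule, 3 of 5 principal cell and 1 of 5 intercalated cell markers were lower, 1 intercalated cell marker was higher, and 4 of 5 leukocyte and 4 of 4 fibroblast markers were higher. Under that scaling the podocyte marker Nphs1 (-0.49, adjusted p = 0.267) and the endothelial marker Kdr (-0.32, adjusted p = 0.267) lost their calls. The part of these cell types in the results was not tested.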

How the data were processed

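Poly(A) RNA of whole kidney was sequenced from strand-specific libraries, per the labels' protocols, which also give RNA integrity numbers above 7.5. The submitters' processing notes list fastp 0.22.0, FastQC 0.12.1, MultiQC 1.28, Salmon 1.10.3, DESeq2 and GRCm39, with no role or order. The values the authors deposited are estimated counts per gene, not whole numbers, with no normalization stated. The table lists Ensembl identifiers, and a symbol was found for 51344 of 55822, which hold 99.3% of the counts. Of 20 sample columns, 10 were matched to control and puberulic acid samples by name and 10 were not used. The annotation is not given in the sources used here, so no coordinates are given for the counts.

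Counts were rounded to whole numbers, filtered with filterByExpr, scaled with TMM factors and tested with edgeR 4.0.16 (glmQLFit and glmQLFTest, R 4.3.3, limma 3.58.1), with Benjamini-Hochberg adjustment over all 16266 genes. The fit was tested on simulated data in which few genes changed, in equal numbers up and down. It was not tested under changes as widespread as those seen here. Standard errors were derived from the F statistic of each gene, and 95% intervals use 8 residual degrees of freedom. Control libraries had TMM factors of 0.827 to 0.848, and puberulic acid libraries 1.17 to 1.26. A floor of 3 counts is 0.0964 to 0.195 CPM and, like the counting interval of a ratio (exact binomial), covers counting error only. Ratios used log2 of counts plus 1, with exact permutation tests in scipy 1.17.1. Whether replicates came from separate litters or cages is not stated, so p-values measure the spread between these samples.

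The 9 genes and the lists were chosen with earlier results of these data known. Named from each list were the 2 largest called changes in each direction and every gene not called; other list genes, such as partners of the 9, were added after their values were seen. Alternatives were other scalings, filters, DESeq2 1.42.0, a replicate block, 10 counts in place of 1 added for ratios, and leaving out each sample or the mitochondrial and most abundant genes. Samples with the same number did not deviate together.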

Additional observations from a re-analysis of the deposited data

Results flagged for a closer look

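The 9 levels and 7 ratios, in each group of 5 animals, give 32 sets of values. In 6 of them 1 animal was separated from the next by more than 0.71 of the whole spread. Chance, at 1 in 20, would give about 1.6 if the sets were independent, which they are not. All 6 were puberulic acid replicate 1, on the control side. It had the highest Slc12a1 (779 CPM against 139.8 to 324 in the other 4), Slc12a3 (522 against 176 to 264 CPM), Pvalb (5.05 against 0.244 to 0.611 CPM) and Calb1 (295 against 54.0 to 93.3 CPM) of its group. Its log2 ratio of Pvalb to Slc12a3 was the highest (-6.68 against -9.27 to -8.60), and that of Trpv5 to Calb1 the lowest (-3.33 against -1.82 to -1.48). Its Bsnd, Kcnj10, Umod and Trpv5 were also the highest of the 5, with gaps under the limit. For Umod (4719 CPM) and Trpv5 (29.2 CPM) that is above every control, away from the controls. For Trpm6, puberulic acid replicate 2 had the highest level.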

How the results depend on the processing

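Against 10622 genes called as reported, other scalings, filters and tools called 9960 to 11844, and fits without 1 of the 10 samples 10104 to 11108. Total counts called 9179 genes higher and 2526 lower, against 5564 and 5058, or 78.4% higher against 52.4%. Bsnd, Pvalb and Calb1 were called lower in all 18 alternatives. Of the 9 genes, 6 were called lower as reported, 3 with total counts, 5 with upper-quartile factors and with no filter (without Kcnj10), and 4 to 6 without a sample. One was called higher as reported, 3 with total counts, 0 with RLE factors, with no filter and with the replicate block, and 0 to 1 without a sample. Signs turned for Kcnj10 with total counts (0.086) and for Umod without control replicate 5 (-0.07) or puberulic acid replicate 1 (-0.10), within a range of -0.10 to 0.13 over left-out samples. Without single samples the ratio differences ran from 1.37 to 1.86 for Umod to Slc12a1, from -0.13 to 0.19 for Bsnd to Slc12a1, from 0.48 to 0.91 for Slc12a3 to Slc12a1, from 0.26 to 0.45 for Kcnj10 to Slc12a3, from -4.54 to -3.89 for Pvalb to Slc12a3, from 1.02 to 1.35 for Trpm6 to Slc12a3, and from 2.48 to 2.94 for Trpv5 to Calb1. The cause was not tested.

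Same-numbered samples share only a number: their deviations from the group means correlated at -0.172 to 0.039. With the replicate block 10325 genes were called, and Trpv5 was at 0.41 (adjusted p = 0.0561). With 5 pairs the smallest exact p is 0.0625, so no ratio could pass under the block: differences of 1.56 (Umod to Slc12a1), 0.37 (Kcnj10 to Slc12a3), -4.12 (Pvalb to Slc12a3), 1.14 (Trpm6 to Slc12a3) and 2.60 (Trpv5 to Calb1) are unchanged by construction.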

Other observations

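Transcription factors of the loop and distal nephron were mostly lower or did not pass the test. Of 19 genes on the list, 11 were called lower and 0 higher by edgeR's quasi-likelihood test, with a median log2 fold change of -0.67 against 0.05 for all genes tested. Emx1, a homeobox gene, fell from 42.6 ± 8.89 to 10.3 ± 3.88 CPM, and Esrrb, an estrogen-related receptor gene, from 29.1 ± 3.98 to 11.1 ± 8.18 CPM (SD, 5 animals each). Esrrb was at 25.4 CPM in puberulic acid replicate 1, and its log2 fold change was -1.38 with that animal and -1.96 without it. Pax2 (0.00), Pax8 (0.19), Mecom (0.03), Emx2 (-0.05), Grhl2 (0.29), Tfap2a (-0.24), Tfcp2l1 (-0.29) and Irx2 (-0.38) did not pass. Tfcp2l1 was called lower without replicate 1 (-0.45, adjusted p = 0.00309). At an unadjusted p under 0.05 edgeR also had 0 higher, and DESeq2 called 11 lower and 0 higher. With total counts 7 genes of the list were lower and 5 higher, and without replicate 1 they were 12 and 0.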
